A study of Danio rerio with 18 samples.

Results

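The comparison set maternal zygotic scospondin stl297 mutants (MZ) against stl297 heterozygotes (het) at 30 days post fertilisation (dpf), the latest age of a series of 18 RNA-seq libraries. Its members were the 6 libraries whose titles give that age, 3 MZ and 3 het, each made from whole zebrafish (Danio rerio). MZ fish are mutant themselves and come from mutant mothers, so the egg brings no normal product of the gene, whereas het fish carry a single copy of the allele. Both genotypes therefore carry stl297, which the series calls hypomorphic, and neither group used here is without it. The count columns name the MZ libraries homoz and the het libraries ox. The parents of the het fish are not described, and the effects of parents or clutch cannot be told apart from that of the allele. Growth was given as typical, with no treatment. Total RNA came from a Trizol extraction with column clean-up, and libraries were made with a SMARTer kit. Neither the number of fish in a library nor the clutch is stated, so n counts libraries and p-values measure the spread between them, which may be technical.

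The scospondin gene encodes the large glycoprotein that assembles into the Reissner fibre, a thread in the cerebrospinal fluid that runs from the brain ventricles down the central canal of the spinal cord. In zebrafish, loss of the fibre is followed by a bent body axis, and the urotensin-related peptides Urp1 and Urp2, made by neurons that touch the cerebrospinal fluid, act in straightening the axis. By 30 dpf the fish is a juvenile whose skeleton, muscle, brain and eye are all growing, and a whole-body library mixes the RNA of all of them. In such bulk samples fewer cells of a type and less RNA per cell cannot be told apart.

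In MZ fish at 30 dpf the called genes of the neuronal lists were lower, with 1 exception, and those of the muscle and lens lists were higher. The lists of genes for glutamate and GABA signalling, synaptic vesicles and ion channels had median log2 fold changes (log2FC, MZ over het) between -0.89 and -0.47, and plasma protein genes of the liver were also lower. Genes of slow and fast muscle, lens crystallins, several claudins and several genes of cartilage and bone were higher. Of 19980 genes tested, 660 passed an adjusted p of 0.05 in edgeR's quasi-likelihood test (3.3%), 221 of them higher (1.11%) and 439 lower (2.2%). The median log2FC was 0.61 over the genes called higher and -0.95 over those called lower, against 0 over all genes tested. The lists of genes described below held 161 of the 660 called genes.

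Which genes passed the threshold depended on single libraries. In all 660 called genes the 3 MZ values lay on one side of the 3 het values, which by itself fixes their direction when 1 library is left out. Of the 106 called genes that are named by rule, crygm4 was called in all 6 of these fits, 4 more (slc17a6a, slc1a2b, hal and lgals1l1) in 4 of them, and 17 in none. These 17 were VGF, cbln12, lhx5, kcnc3a, elfn2a, cluhb, tubb5, crygs3, crygs4, opn1lw2, scpp9, col5a1, mmp13b, hbae3, gadd45ab, dnaaf3 and iqcd. Over all genes, 2, 361 and 1092 were called without MZ library 1, 2 and 3, and 89, 1 and 12 without het library 1, 2 and 3. At an unadjusted p under 0.05 (edgeR), 4453 of the 19980 genes passed with all 6 libraries, in either direction. In the fits without 1 library 3193 to 5502 genes did so. Counts of list members at that threshold, given below, have this as their background. Pearson's r across genes ran from 0.973 to 0.988 between libraries of the same genotype and from 0.969 to 0.978 between libraries of different genotype. Total counts lay between 13067449 and 17141819.

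**Figure D1:**
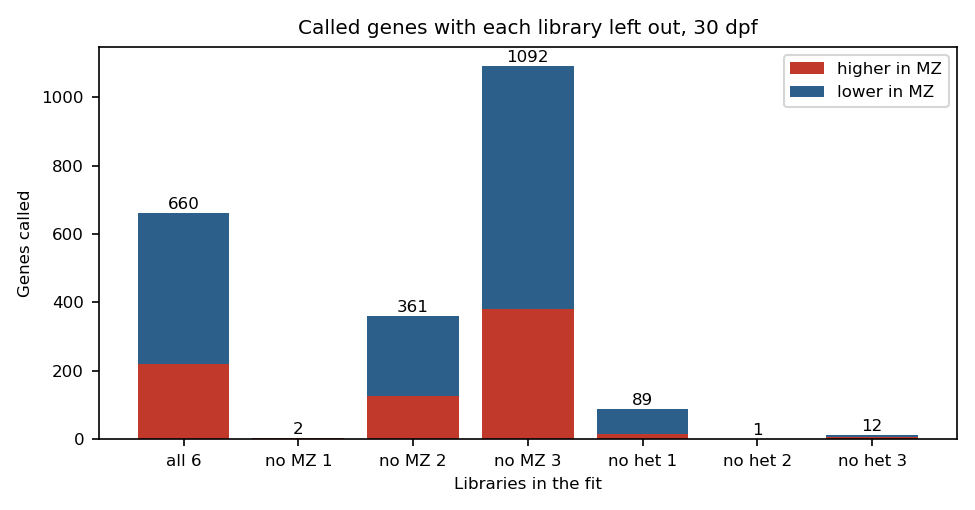
Number of genes called at 30 dpf (vertical axis, adjusted p under 0.05) with all 6 libraries and with each library left out (horizontal axis), split into genes higher and lower in MZ. The number is 660 with all libraries and runs from 1 without het library 2 to 1092 without MZ library 3.

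Fold change also ran with gene length. Called genes that were lower in MZ had a median deposited length of 3493 bases, called genes that were higher had 1744 bases, and all genes tested had 2347 bases. Across genes, Spearman's rho between log2 fold change and length was -0.291, a description of genes that share the same 6 libraries. The trend was not the same in every library. In the longest decile of genes the median deviation from the gene's mean, on the log2(CPM + 1) scale, was -0.148, -0.193 and 0.091 in MZ libraries 1, 2 and 3, and 0.115, 0.067 and 0.075 in het libraries 1, 2 and 3. MZ library 3 therefore lay with the het libraries in this measure. With each library's length trend removed, 530 genes were called, 205 higher and 325 lower, and 429 of the 660 genes were among them. Named genes no longer called then included VGF, pax5, c1ql4b, elfn1b, opn1lw2 and gadd45ab.

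**Figure D2:**
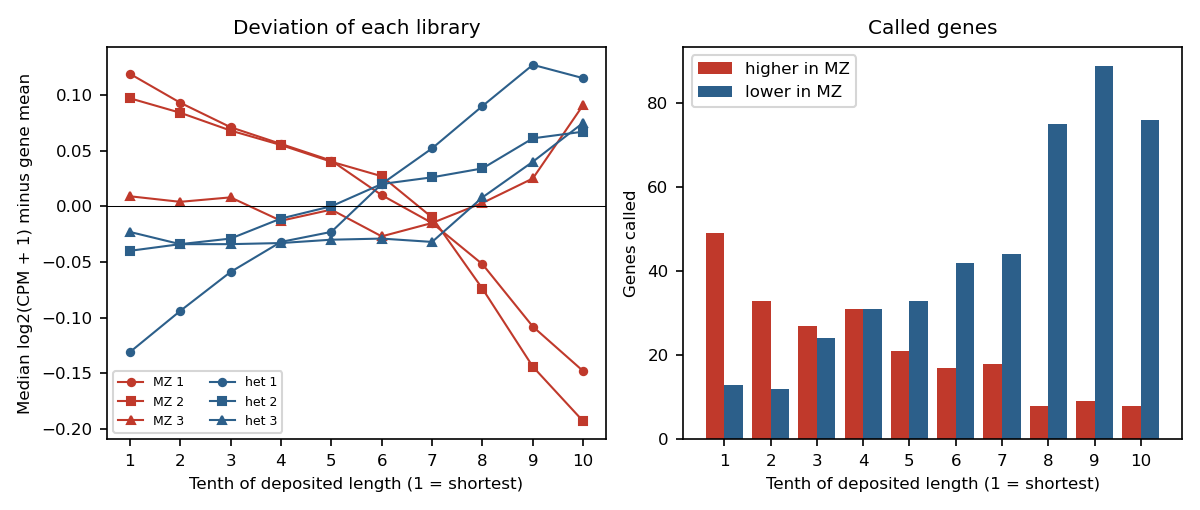
Left, median log2(CPM + 1) of each library minus the gene's mean (vertical axis) by decile of deposited gene length (horizontal axis, 1 shortest), with MZ libraries in red and het libraries in blue. Right, number of genes called higher and lower in MZ in each decile, from 49 higher and 13 lower in the shortest to 8 higher and 76 lower in the longest.

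The targeted gene and the genes that act with it gave no call in the fit of the 6 libraries of 30 dpf. Counts of scospondin were 5, 1 and 5 in MZ libraries and 5, 3 and 7 in het libraries. These counts overlap and lie near a floor of 3 counts, so a difference was not detectable at this depth (log2FC -0.22, SE 0.63, edgeR adjusted p = 0.864), and a hypomorphic allele need not alter the level of its transcript. Of the 9 listed genes of the Reissner fibre and urotensin axis, 5 were tested and 0 were called by edgeR or by DESeq2, and 1 had an unadjusted p under 0.05. This was clu, which encodes clusterin, an extracellular chaperone, with 67.1, 57.5 and 47.2 CPM (the count scaled to library size with TMM factors) in MZ and 42.4, 40.4 and 42.5 CPM in het libraries. Its log2FC was 0.45 (SE 0.13, adjusted p = 0.0874), and all 3 MZ libraries lay above the het libraries. In 1 fit over all 18 libraries clu was called (0.43, edgeR adjusted p = 0.0205), as it was without MZ library 3 (0.58, adjusted p = 0.0289). The peptide genes urp1 and urp2 had log2FC values of -0.06 (SE 0.34) and 0.20 (SE 0.39), and UTS2R, a urotensin receptor gene, 0.29 (SE 0.30), all with overlapping groups. Among 32 tested genes that are known for spine curvature, 0 were called by edgeR or by DESeq2, 0 had an unadjusted p under 0.05, and the median log2FC was 0.01.

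**Figure D3:**
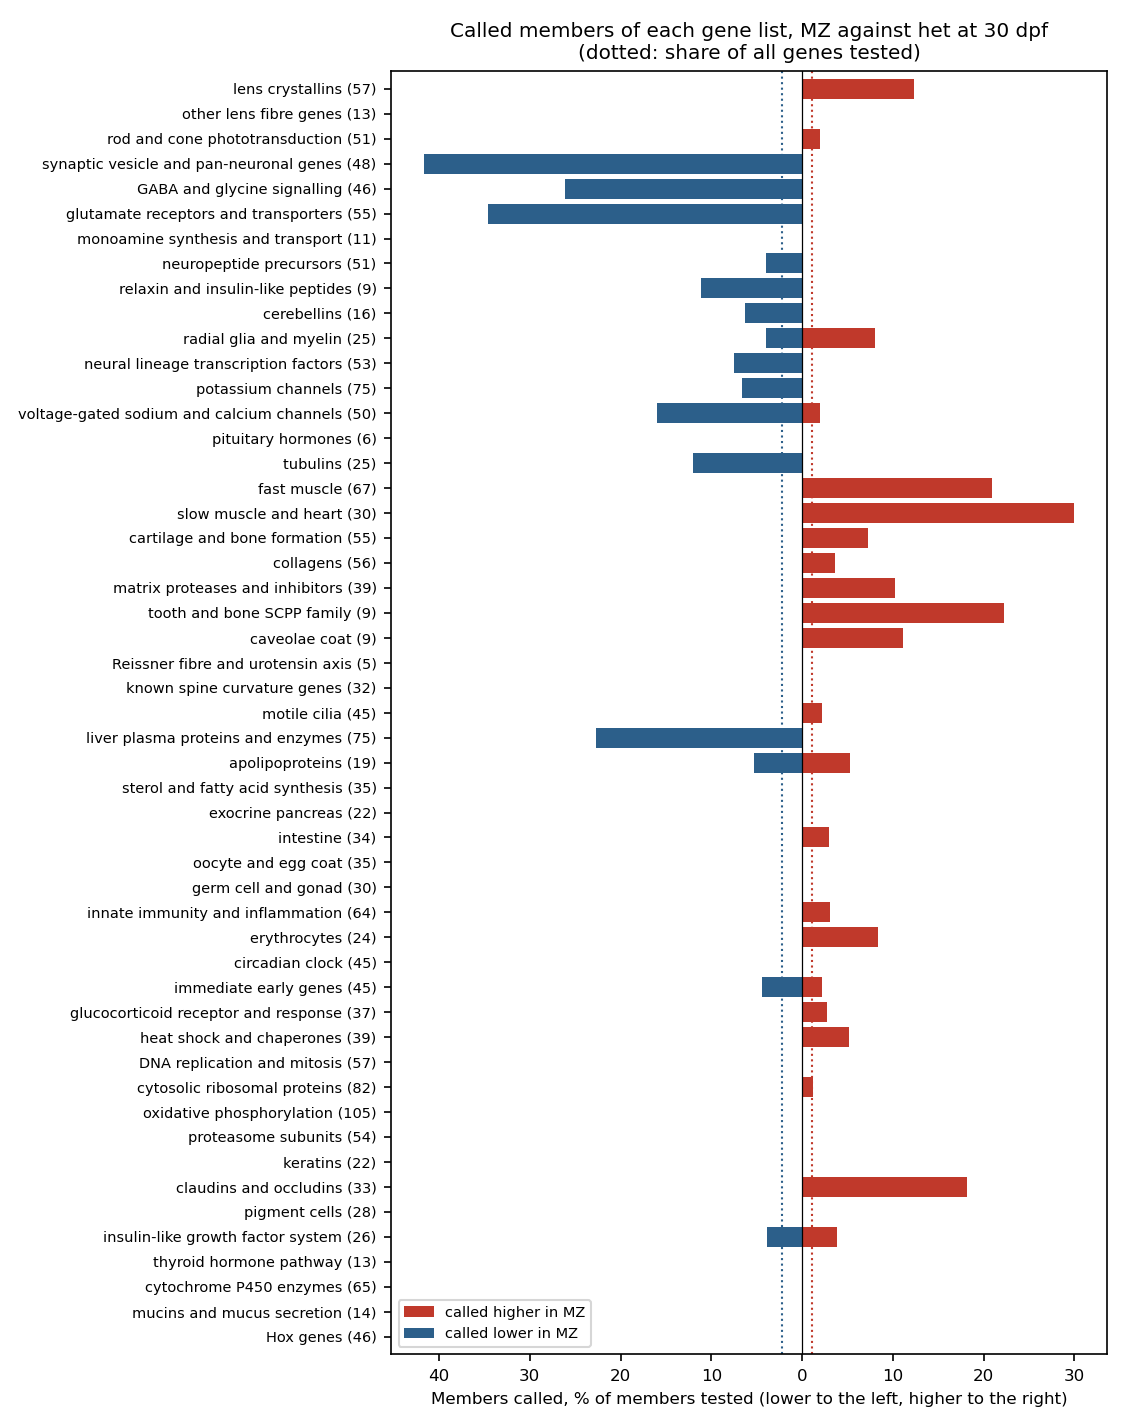
Share of tested members of each gene list that was called lower (blue, to the left) or higher (red, to the right) in MZ at 30 dpf, in percent, with the number of members tested in brackets. Dotted lines mark the 1.11% and 2.2% of all genes tested that were called higher and lower; the synaptic list reaches 41.7% lower and the slow muscle list 30% higher.

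Genes of glutamate signalling, the main excitatory transmission of the brain, were lower in MZ fish as a group. Of 55 tested members of that list, 19 were called, each lower, and 52 had a negative log2 fold change, with a median of -0.89. Of the vesicular transporters, which load glutamate into synaptic vesicles, slc17a6a stood at 2.95, 3.55 and 2.51 CPM in MZ libraries, against 10.8, 10 and 8.41 CPM in het libraries. All MZ values lay below all het values, with a log2FC of -1.69 (standard error, SE, 0.20, edgeR adjusted p = 0.0177). The transporter gene slc1a2b, whose mammalian counterpart clears glutamate into astrocytes, had 51.9, 52.2 and 65.6 CPM in MZ and 132, 128 and 209 CPM in het libraries. It fell by 1.47 on the log2 scale (SE 0.19, adjusted p = 0.0186), and the groups did not overlap. The related uptake gene slc1a3b fell by 1.13 (SE 0.15, adjusted p = 0.0186).

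Receptor subunits moved the same way across classes. Of the AMPA receptor subunits, which carry fast excitatory current, 5 of 8 were called lower, of the NMDA receptor subunits 4 of 10, and of the metabotropic receptors 4 of 13. All 8, 10 and 13 had negative fold changes, with medians of -0.84, -1.02 and -0.86. The 5 kainate receptor subunits had a median of -1.2, and 0 were called. The largest falls among the called receptors were those of grm1a, at -1.70, and of grin2ab, at -1.65, which are named here after their values were seen. GRM2_(2_of_2) fell by 1.35 (SE 0.17, adjusted p = 0.0186), a name that marks a copy of a family whose shared reads make its value uncertain. Glutamate list members called were 0, 8 and 20 without MZ library 1, 2 and 3, and 5, 0 and 2 without het library 1, 2 and 3. The median stayed between -0.97 and -0.83 in these fits, and between 31 and 36 members had an unadjusted p under 0.05 and were lower. The members are long, at a median of 3886 bases, and with the length trend removed 14 were called lower at a median of -0.76. The fall ran with length: the 12 members at or below the median length of all genes had a median of -0.33, and the 43 longer ones -1.01.

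Genes that make, load and take up the inhibitory transmitter GABA were lower as well. Of 46 tested members of the GABA and glycine list, 12 were called, each lower, at a median of -0.70. The synthesis gene gad2 had 15.2, 18.6 and 18.8 CPM in MZ libraries and 36.5, 37.6 and 48.0 CPM in het libraries. The groups lay apart, and the fall was 1.21 on the log2 scale (SE 0.15, edgeR adjusted p = 0.0177). The vesicle loader slc32a1 had 15.5, 18.2 and 15.8 CPM in MZ and 33.1, 34.8 and 36.0 CPM in het libraries, a log2FC of -1.07 (SE 0.12, adjusted p = 0.0177). SLC6A11, a plasma membrane GABA transporter, showed the largest change of the list, with 3.99, 4.53 and 6.88 CPM in MZ and 22.1, 16.2 and 25.8 CPM in het libraries. Its log2FC was -2.05 (SE 0.24, adjusted p = 0.0177), and slc6a1a, which encodes another GABA transporter, had -1.15 (SE 0.16, adjusted p = 0.0186).

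Among GABA-A receptor subunits, the chloride channels opened by GABA, 4 of 21 were called lower and 20 had negative values, at a median of -0.74. Of the 7 glycine receptor subunits 1 was called, glrbb, named after its value was seen, with a log2FC of -0.82. Over the whole GABA and glycine list the members called were 0, 7 and 17 without MZ library 1, 2 and 3, and 7, 0 and 0 without het library 1, 2 and 3, while 20 to 29 were lower at an unadjusted p under 0.05. Members at or below the median gene length had a median of -0.66 and longer members -0.76.

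The machinery of synaptic vesicles and other genes shared by most neurons followed. In this list 20 of 48 tested members were called, each lower, at a median of -0.60, and 31 had all 3 MZ values below all 3 het values. Over all genes tested, 14% were below in this sense. The vesicle calcium sensor gene syt1a had 12.6, 16.1 and 18.7 CPM in MZ and 30.4, 32.4 and 40.1 CPM in het libraries. This was a log2FC of -1.11 (SE 0.17, edgeR adjusted p = 0.0197) without overlap. SV2A, a vesicle membrane protein gene, had -1.2 (SE 0.19, adjusted p = 0.0207), nrxn1a, which encodes a presynaptic adhesion protein, -0.92 (SE 0.13, adjusted p = 0.0187), and atp1a3a, which encodes a neuronal sodium pump subunit, -1.01 (SE 0.14, adjusted p = 0.0187). Synaptic members called were 0, 15 and 15 without MZ library 1, 2 and 3, and 7, 0 and 0 without het library 1, 2 and 3, with 27 to 35 members lower at an unadjusted p under 0.05 and medians from -0.68 to -0.46.

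Ion channels of excitable cells showed lower levels with more spread. Of 50 voltage-gated sodium and calcium channel genes tested, 8 were called lower and 1 higher, at a median of -0.67. The calcium channel gene cacna1ea, at 0.638, 0.453 and 0.728 CPM in MZ and 2.27, 2.05 and 2.48 CPM in het libraries, fell by 1.88 (SE 0.32, edgeR adjusted p = 0.0236). The sodium channel gene scn8aa fell by 1.26 (SE 0.21, adjusted p = 0.0237). The genes cacnb4b and cacng8a, listed here for their calcium channel subunit names, fell by 0.73 (SE 0.13, adjusted p = 0.0260) and 1.26 (SE 0.23, adjusted p = 0.0263). The gene called higher was scn4ba, with a log2FC of 0.57 and an adjusted p of 0.0484, named here after its value was seen. Direction ran with length here: the 10 members at or below the median gene length had a median of 0.27 and the 40 longer ones -0.71.

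Of 75 potassium channel genes tested, 5 were called, each lower, at a median of -0.47. The 37 members at or below the median gene length had a median of -0.23 and the 38 longer ones -0.65. KCNJ6 and kcnj3b, which encode subunits of channels opened by inhibitory G proteins, had log2FC values of -1.56 (SE 0.32, adjusted p = 0.0390) and -1.21 (SE 0.19, edgeR adjusted p = 0.0202). The calcium-activated channel gene kcnma1a had -0.86 (SE 0.16, adjusted p = 0.0322) and kcnc3a, of a class found in fast-firing neurons, -0.76 (SE 0.16, adjusted p = 0.0422). Both channel lists were short of calls without single libraries. Potassium channels called lower were 0, 2 and 8 without MZ library 1, 2 and 3, and 0 without each het library. The sodium and calcium channels called lower were 0, 3 and 10 without MZ library 1, 2 and 3, and again 0 without each het library. At an unadjusted p under 0.05 these fits had 17 to 26 and 19 to 27 members lower. Joined, the synaptic, GABA and glycine, glutamate and channel lists held 274 tested genes, of which 64 were called lower and 1 higher, and 230 had negative values at a median of -0.64.

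**Figure D4:**
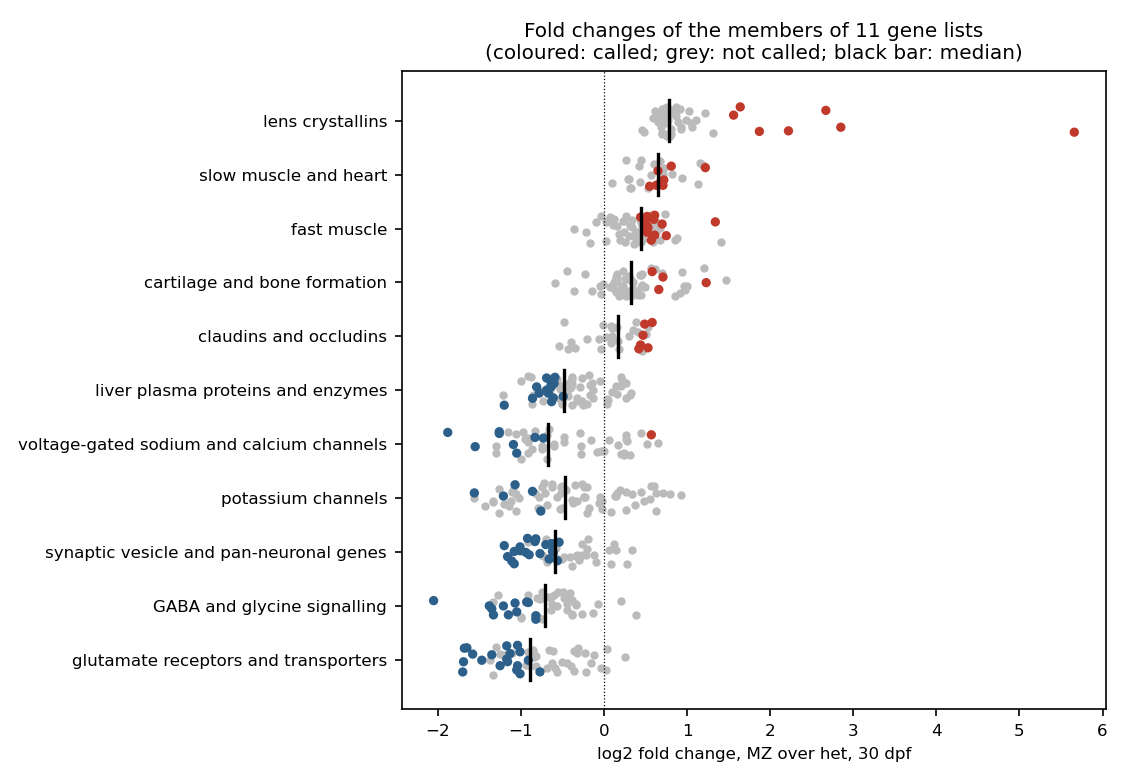
log2FC of MZ over het (horizontal axis) for each tested member of 11 gene lists, with called members in colour, the others in grey and the median as a black bar. Medians run from 0.78 in lens crystallins to -0.89 in glutamate receptors and transporters.

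Peptide and activity genes of the brain held a few strong falls. The relaxin-3 gene rln3a, which encodes a neuropeptide of small brainstem cell groups, had counts of 5, 3 and 3 in MZ libraries and of 24, 86 and 78 in het libraries. These were 0.399, 0.226 and 0.199 CPM in MZ and 1.70, 5.52 and 4.4 CPM in het libraries, a log2FC of -3.81 (SE 0.54, edgeR adjusted p = 0.0187). The MZ counts were at or close to the floor of 3 counts, so this fold is only roughly known. It was the 1 member called among 9 tested relaxin and insulin-like peptide genes. The insulin gene ins had a log2FC of -1.47 (SE 0.43, adjusted p = 0.0884), with 1.52, 5.73 and 6.22 CPM in MZ and 7.58, 16.4 and 13.6 CPM in het libraries. These values did not overlap, but the gene was not called, except with the replicate number as a block (-1.57, adjusted p = 0.0234).

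Of 51 neuropeptide precursor genes tested, 2 were called, both lower. The share was 3.92%, beside 2.2% of all genes called lower and 3.3% called in either direction. Both encode granin-family proteins of secretory granules: scg2b had 31.7, 31.9 and 28 CPM in MZ and 48.4, 59 and 54.7 CPM in het libraries (log2FC -0.82, SE 0.11, edgeR adjusted p = 0.0186), and VGF fell by 1.33 (SE 0.30, adjusted p = 0.0480). The cerebellin gene cbln12, of a family of secreted synapse organisers, fell by 1.99 (SE 0.42, adjusted p = 0.0418) and was the 1 called of 16. VGF and cbln12 were each called in 0 of the 6 fits without 1 library. Immediate early genes, which cells switch on soon after stimulation, had a median of 0.09 over 45 tested members, with 33 positive and 12 negative. The members called lower were npas4a and EGR4. The neuron-specific npas4a had 1.6, 2.26 and 1.79 CPM in MZ and 6.09, 5.19 and 4.57 CPM in het libraries, a fall of 1.48 (SE 0.24, adjusted p = 0.0222), and EGR4 fell by 1.15 (SE 0.16, adjusted p = 0.0187). The member called higher was ctgfb, which encodes a matrix-associated growth factor, with a log2FC of 0.67 (SE 0.13, adjusted p = 0.0330).

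Transcription factors that mark brain regions were lower in part. Of 53 neural lineage factors tested, 4 were called, each lower, and 43 were negative, at a median of -0.27. Otpa, a factor of hypothalamic neuroendocrine neurons, had 3.43, 3.70 and 3.11 CPM in MZ and 7.87, 8.08 and 7.22 CPM in het libraries, a log2FC of -1.18 (SE 0.18, edgeR adjusted p = 0.0197). The other called members were lhx5 at -1.17 (SE 0.27), zic5 at -0.82 (SE 0.14) and lhx9 at -0.69 (SE 0.13), with adjusted p of 0.0485, 0.0235 and 0.0340. They were 0, 5 and 3 without MZ library 1, 2 and 3, and 0 without each het library, with 15 to 20 members lower at an unadjusted p under 0.05.

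Glial genes gave calls in both directions. Over 25 tested genes of radial glia and myelin the median was 0.01. The myelin genes pmp22a and mbpb were called higher, and mbpb was at 146, 142 and 137 CPM in MZ and 103, 94.7 and 102 CPM in het libraries. Their log2FC values were 0.53 (SE 0.09, edgeR adjusted p = 0.0243) and 0.50 (SE 0.09, adjusted p = 0.0261). Sox2, a factor of neural progenitors, was called lower at -0.98 (SE 0.23, adjusted p = 0.0488). It was called in 1 of the 6 fits without 1 library. With the replicate block or with the length trend removed (edgeR adjusted p = 0.0514 in the latter) sox2 was not called. Among 25 tubulins 3 were called, each lower: tuba1a (-0.62, SE 0.12), tuba2 (-0.68, SE 0.14) and tubb5 (-0.42, SE 0.10). The tubulins as a list lay near 0, at a median of -0.06 with 11 positive and 14 negative. Tubb5 was called in 0 of the 6 fits without 1 library, and tuba2 was not called with the length trend removed (edgeR adjusted p = 0.0729).

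The largest falls outside these lists were of genes with low counts. They comprised pax5, a transcription factor gene of the midbrain-hindbrain boundary and of B cells, with a log2FC of -2.20 (SE 0.50), c1ql4b, of a family of secreted synaptic proteins, with -2.70 (SE 0.61), and slc8a4a, which encodes a sodium-calcium exchanger, with -1.76 (SE 0.35). Their edgeR adjusted p were 0.0480, 0.0480 and 0.0349. The synaptic adhesion genes elfn1b and elfn2a had -1.80 (SE 0.39) and -1.78 (SE 0.39), PTCHD2 had -1.93 (SE 0.40) and dvl1b, which encodes a Wnt signal transducer, -1.80 (SE 0.35). Cluhb had 3 counts in each MZ library and 18, 13 and 17 in het libraries, so that the groups lay apart at counts too low for a firm fold. The abundant aldocb, which encodes a brain form of the glycolytic enzyme aldolase, had 215, 249 and 195 CPM in MZ and 297, 329 and 384 CPM in het libraries, a fall of 0.62 (SE 0.13, adjusted p = 0.0403).

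**Figure D5:**
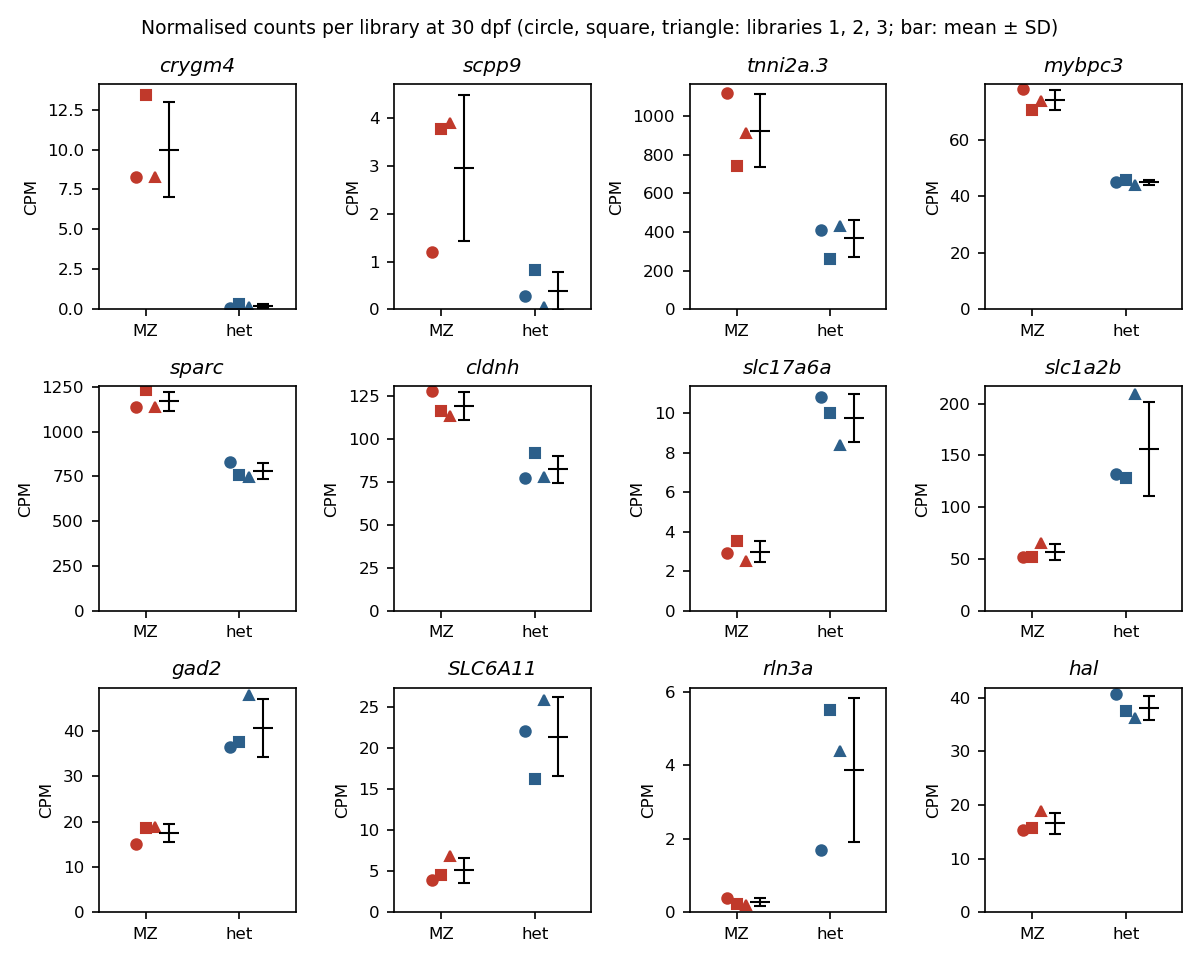
Normalised counts (CPM, vertical axes from 0) of 12 genes in each library at 30 dpf, MZ left and het right in each panel, with circle, square and triangle for libraries 1, 2 and 3 and a bar for the mean ± SD. The groups do not overlap in any panel; crygm4 lies between 8.27 and 13.4 CPM in MZ and between 0.0709 and 0.321 CPM in het libraries.

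Lens crystallins, the refractive proteins that fill lens fibre cells, were higher in MZ fish. All 57 tested crystallin genes had a positive log2 fold change, at a median of 0.78, and 7 were called, each higher. Crygm4 had counts of 104, 178 and 125 in MZ libraries and of 1, 5 and 3 in het libraries. It is a gene of the M-type gamma crystallins of fish lenses, and the same counts in CPM were 8.30, 13.4 and 8.27 in MZ and 0.0709, 0.321 and 0.169 in het libraries. Its log2FC of 5.66 (SE 0.40) had the smallest adjusted p of all genes (edgeR, 0.00161). At 15 dpf its count was 0 in all 6 libraries, and at 5 dpf it was 0, 0 and 1 in MZ and 2, 1 and 1 in het libraries.

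Other called crystallins were less extreme. Crygm7 had 120, 217 and 164 CPM in MZ and 26.7, 66.8 and 66.7 CPM in het libraries (log2FC 1.64, SE 0.32, edgeR adjusted p = 0.0349). Crygm6 had a log2FC of 1.87 (SE 0.33) and crybb3 of 2.67 (SE 0.41), with adjusted p of 0.0260 and 0.0197. Crygs3 rose by 2.85 (SE 0.59, adjusted p = 0.039) and crygs4 by 2.22 (SE 0.45, adjusted p = 0.0385). Each of these crygs genes was called in 0 of the 6 fits without 1 library. Both calls were also lost once the length trend was removed (edgeR adjusted p = 0.0519 for each). The crystallins are short, at a median of 938 bases, and the shortest decile of all genes tested had a median log2FC of 0.18. Crystallin genes lie in families of similar sequence, and reads shared between them make single values uncertain. Het library 1 was low for the whole list: the summed crystallin level was 15863, 27516 and 18469 CPM in MZ libraries and 6033, 14970 and 15262 CPM in het libraries. Without that library the list's median was 0.45 and 2 members were called, against 1 to 4 called and medians from 0.54 to 1.04 when another library was left out. The 13 other lens fibre genes were also all positive, at a median of 0.66, but 0 were called by edgeR or DESeq2 and 6 had an unadjusted p under 0.05. Photoreceptor genes lay near 0. Over 51 phototransduction genes the median was 0.03 and 1 was called, the red cone opsin opn1lw2 (0.54, SE 0.12, adjusted p = 0.0484), while the rod opsin rho had 0.16 (SE 0.19). The share called was 1.96%, beside 3.3% of all genes called in either direction and 1.11% called higher.

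Slow muscle and heart genes were higher in MZ fish. All 30 tested members had positive values, at a median of 0.66, and 9 were called. The myosin-binding protein gene mybpc3 had 77.9, 70.7 and 73.9 CPM in MZ libraries and 45, 45.9 and 43.9 CPM in het libraries, which is narrow within each genotype. Its log2FC was 0.72 (SE 0.09, edgeR adjusted p = 0.0186). Troponins, the calcium switch of the thin filament, made up 5 of the 9, among them tnnc1b (0.71, SE 0.11, adjusted p = 0.0196) and tnnt2e (0.65, SE 0.10, adjusted p = 0.0202). MYH7_(5_of_6), a copy of a slow myosin heavy chain gene whose reads may be shared, had 1.22 (SE 0.18, adjusted p = 0.0196).

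Fast muscle genes were also higher. Of 67 tested members 14 were called, each higher, and 62 were positive, at a median of 0.44. The troponin I gene tnni2a.3 had 1120, 742 and 913 CPM in MZ and 413, 259 and 429 CPM in het libraries, a log2FC of 1.34 (SE 0.21, edgeR adjusted p = 0.0202) without overlap. The list holds 9 parvalbumins, a family of calcium buffers whose members are not all particular to fast fibres. Of these, 4 were called higher, among them pvalb7 at 0.75 (SE 0.11, adjusted p = 0.0197), pvalb3 at 0.61 (SE 0.10, adjusted p = 0.0239) and pvalb4 at 0.70 (SE 0.15, adjusted p = 0.0390). The tropomyosin gene TPM1 had 0.61 (SE 0.10), the calcium pump gene atp2a1 0.52 (SE 0.11) and tnni2b.2 0.57 (SE 0.12), with adjusted p of 0.0229, 0.0390 and 0.0424. Outside the list, the abundant myosin light chain gene myl13 had 0.63 (SE 0.13, adjusted p = 0.0361). Of the 7 fast myosin heavy chains 0 were called, and their values ran from -0.17 to 1.41.

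The muscle calls also rested on single libraries. Fast muscle members called were 0, 8 and 17 without MZ library 1, 2 and 3, and 1, 0 and 1 without het library 1, 2 and 3, while 29 to 41 were higher at an unadjusted p under 0.05. For slow muscle and heart the numbers were 0, 5 and 9 without MZ library 1, 2 and 3, and 1, 0 and 0 without het library 1, 2 and 3, with 16 to 23 at an unadjusted p under 0.05 and medians from 0.58 to 0.68. Both lists were about as high with the length trend removed, at medians of 0.42 and 0.59 and with 15 and 12 members called. Single calls changed, and pvalb3, pvalb4 and tnni2b.2 were not called in that fit (edgeR adjusted p = 0.0642, 0.0522 and 0.0579). Of the 9 genes of the caveolae coat, which lines membrane pits of muscle and fat, 1 was called, murca, at 0.43 (SE 0.10, adjusted p = 0.0476), and all 9 were positive. Murca was called in 1 of the 6 fits without 1 library. It was not called with the length trend removed (edgeR adjusted p = 0.0742), without a filter on low counts or with the replicate block.

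Skeletal and matrix genes were higher in smaller numbers. Of 55 tested genes of cartilage and bone formation 4 were called, each higher, and 47 were positive, at a median of 0.32. The gene sparc, which encodes osteonectin, a collagen-binding protein of bone matrix, had 1140, 1230 and 1140 CPM in MZ and 833, 758 and 748 CPM in het libraries. The groups lay well apart, at a log2FC of 0.58 (SE 0.10, edgeR adjusted p = 0.0260). The cartilage genes matn4 and lect1 had 0.71 (SE 0.14, adjusted p = 0.0361) and 1.23 (SE 0.27, adjusted p = 0.0469). In lect1, which encodes chondromodulin, MZ library 2 stood out at 73.8 CPM beside 41.4 and 30.8 CPM in MZ libraries 1 and 3, against 19.8, 23.8 and 18.4 CPM in het libraries. The cartilage collagen gene col2a1b was called at 0.66 (SE 0.15, adjusted p = 0.0484) and the fibrillar collagen gene col5a1 at 0.55 (SE 0.12, adjusted p = 0.0480), the 2 called of 56 collagens. Both were higher, and that share, 3.57%, lay beside 3.3% of all genes called in either direction and 1.11% called higher. Members of the cartilage and bone list called higher were 0, 1 and 11 without MZ library 1, 2 and 3, and 0 without each het library, with 12 to 22 higher at an unadjusted p under 0.05.

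Matrix turnover and mineralised tissue genes had further calls. Of 39 matrix proteases and inhibitors 4 were called higher at a list median of 0.06: the proteases mmp30 (0.70, SE 0.12) and mmp13b (0.68, SE 0.15), and the inhibitors timp4a (0.90, SE 0.16) and timp2a (0.42, SE 0.09). Timp4a had 31.4, 25.2 and 24.6 CPM in MZ and 12, 15.8 and 15.7 CPM in het libraries. Of the 9 tested genes in the list of SCPP genes (secreted calcium-binding phosphoproteins of teeth and bone) and their sparc relatives, 8 were positive and 2 were called, sparc, which is counted above, and scpp9. Scpp9 had counts of 15, 50 and 59 in MZ libraries and of 4, 13 and 1 in het libraries, a log2FC of 2.93 (SE 0.67, edgeR adjusted p = 0.0485). MZ library 1 lay just above the highest het library, and scpp9 was called in 0 of the fits without 1 library. The collagen chaperone gene serpinh1b was called higher at 0.55 (SE 0.12, adjusted p = 0.0485) and hspb6, a small heat shock protein gene, at 0.76 (SE 0.17, adjusted p = 0.0486), the 2 called of 39 chaperones.

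Claudins, which seal the contacts between epithelial cells, were higher in part. Of 33 tested claudins and occludins 6 were called, each higher, at a list median of 0.17. Cldnh had 128, 116 and 113 CPM in MZ and 77.3, 91.5 and 77.8 CPM in het libraries (log2FC 0.53, SE 0.11, edgeR adjusted p = 0.0361). Cldna had 0.49 (SE 0.11, adjusted p = 0.0452), cldn7b 0.47 (SE 0.10, adjusted p = 0.0439) and CLDN23_(1_of_3) 0.58 (SE 0.12, adjusted p = 0.0398). The calls were 8 without MZ library 3 and 0 in the other 5 fits that left out a library, where 10 to 16 members were higher at an unadjusted p under 0.05. Keratins had a median of 0.23 over 22 genes, with 0 called by edgeR, 4 by DESeq2 and 7 at an unadjusted p under 0.05.

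Plasma proteins and enzymes made by the liver were lower in MZ fish. Of 75 tested members 17 were called, each lower, and 62 were negative, at a median of -0.48. Hal, which encodes the enzyme that begins histidine breakdown, had 15.3, 15.7 and 18.8 CPM in MZ and 40.6, 37.5 and 36.2 CPM in het libraries. The groups did not overlap, at a log2FC of -1.2 (SE 0.12, edgeR adjusted p = 0.0165). Gc, which encodes the vitamin D-binding protein of plasma, had 78.2, 81.3 and 79.1 CPM in MZ and 121, 124 and 122 CPM in het libraries, and fell by 0.62 (SE 0.09, adjusted p = 0.0186). The urate oxidase gene uox fell by 0.64 (SE 0.10, adjusted p = 0.0197), itih2, which encodes a plasma protein that binds hyaluronan, by 0.78 (SE 0.12, adjusted p = 0.0204) and hpda, of tyrosine breakdown, by 0.64 (SE 0.11, adjusted p = 0.0236).

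By role, 4 of 5 fetuins and kininogen were called lower, among them fetub (-0.63, SE 0.12, adjusted p = 0.0280) and ahsg2 (-0.59, SE 0.10, edgeR adjusted p = 0.0236). Of 17 clotting and anticlotting genes 6 were called lower and all 17 were negative, whereas of 16 complement genes 0 were called, at a median of -0.41. Liver members called were 0, 10 and 33 without MZ library 1, 2 and 3, and 4, 0 and 1 without het library 1, 2 and 3, with 44 to 52 lower at an unadjusted p under 0.05 and medians from -0.53 to -0.41. Short and long members had medians of -0.42 and -0.53. Apolipoproteins had a call in each direction, with apoa1b of the high-density lipoprotein lower (-0.68, SE 0.15, adjusted p = 0.0465) and apodb higher (0.65, SE 0.14, adjusted p = 0.0421), at a median of -0.04 over 19.

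Digestive and germ line genes gave 1 call, in the intestine. All 22 tested genes of the exocrine pancreas were negative, at a median of -0.40, and 0 were called by edgeR, 7 by DESeq2 and 14 at an unadjusted p under 0.05. The trypsin gene try had 7040, 7510 and 5580 CPM in MZ and 8150, 10800 and 7910 CPM in het libraries, a log2FC of -0.42 (SE 0.18, adjusted p = 0.205), and the protease gene prss59.2 had -0.37 (SE 0.16, adjusted p = 0.211). Among 34 intestine genes 24 were negative, at a median of -0.14. In the other direction 1 was called (2.94%, beside 3.3% of all genes in either direction and 1.11% higher). This was fabp1b.2, which encodes a fatty acid carrier, at 1.79 (SE 0.42, edgeR adjusted p = 0.0498). It had 41.8, 35.4 and 77.8 CPM in MZ and 26.4, 9.62 and 9.08 CPM in het libraries, so that MZ library 3 and het library 1 stood apart. The log2FC of fabp1b.2 was 1.37 without MZ library 3, where the call was lost (adjusted p = 0.076), and 2.45 without het library 1. The call was also lost without MZ library 1, het library 2 or het library 3, and with the stricter filter, the robust fit or the length trend removed. Oocyte and egg coat genes overlapped between genotypes. The egg coat gene zp3.2 had 39.2, 265 and 30.4 CPM in MZ and 277, 215 and 63.5 CPM in het libraries, and the germ cell gene ddx4 had a log2FC of -0.24 (SE 0.43, adjusted p = 0.781). The oocyte list of 35 genes had 0 calls by edgeR or DESeq2, with 1 gene at an unadjusted p under 0.05, and a median of -0.55. This median was -1.72 with 4 calls without MZ library 2 and -0.13 without MZ library 3. The sex of the fish is not given in the labels.

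Immune and blood genes had a few calls upward. Of 64 tested genes of innate immunity and inflammation 2 were called, both higher, and 56 were positive, at a median of 0.30. The share called was 3.12%, beside 3.3% of all genes called in either direction and 1.11% called higher. Irg1l, of a family induced in inflammation, had 17.7, 15.2 and 8.93 CPM in MZ and 5.24, 6.28 and 6.60 CPM in het libraries, a log2FC of 1.2 (SE 0.24, edgeR adjusted p = 0.0377). The chemokine gene cxcl18b had 0.67 (SE 0.15, adjusted p = 0.0485). Cxcl18b was not called with the length trend removed (edgeR adjusted p = 0.0742), with limma-voom or with the replicate block. Outside the list, the galectin gene lgals1l1 had 122, 92.0 and 85.0 CPM in MZ and 26.1, 28.9 and 42.9 CPM in het libraries. At 1.61 (SE 0.20, adjusted p = 0.0177) it was among the 12 largest rises, with ms4a17a.2, of a family of membrane proteins, at 1.83 (SE 0.21, adjusted p = 0.0177) and the chemokine gene ccl19a.2 at 1.86 (SE 0.39, adjusted p = 0.0420). Of 24 erythrocyte genes 2 were called higher, the globins hbbe1.2 (1.09, SE 0.21, adjusted p = 0.0349) and hbae3 (1.04, SE 0.23, adjusted p = 0.0482). The median of that list was 0.02, with 13 members positive and 11 negative. With the length trend removed neither globin was called (edgeR adjusted p = 0.0611 and 0.0918). Hbae3 was also called in 0 of the 6 fits without 1 library.

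A few calls fell in other lists. The growth factor binding protein gene igfbp5b was higher (0.55, SE 0.11, edgeR adjusted p = 0.0340) and the insulin receptor substrate gene irs2a lower (-1.51, SE 0.31, adjusted p = 0.0390) among 26 genes of the insulin-like growth factor system. Gadd45ab, a stress and DNA damage response gene, was the 1 called of 37 glucocorticoid response genes, at 0.60 (SE 0.13, adjusted p = 0.0449). That share was 2.7%, beside 3.3% of all genes called in either direction and 1.11% called higher. Dnaaf3, needed to assemble dynein arms, was the 1 called of 45 motile cilia genes, at 1.31 (SE 0.30, adjusted p = 0.0485). Its list's share was 2.22%, beside the same 3.3% and 1.11%. The cilia list had a median of 0.12, with 29 members positive and 16 negative. Iqcd, which encodes a protein of the axonemal dynein regulatory complex, stood outside that list, at 1.69 (SE 0.39, adjusted p = 0.0485). Dnaaf3 and iqcd were each called in 0 of the 6 fits without 1 library, and iqcd in 2 of 13 alternative fits. The abundant ptgdsb, of a lipocalin family with prostaglandin synthase members, had 2760, 2470 and 2320 CPM in MZ and 1630, 1510 and 1830 CPM in het libraries, a log2FC of 0.60 (SE 0.13, adjusted p = 0.0400).

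The genotype effect at 30 dpf was set against that at 15 dpf in a fit over the 12 libraries of both ages, which tests the difference between the effects. Of 20524 genes tested, 468 differed (2.28%), 213 with a higher value at 30 dpf (1.04%) and 255 with a lower one (1.24%), and 208 of the 660 genes called at 30 dpf were among them, 72 higher and 136 lower at 30 dpf. The 660 genes were picked on the same libraries of 30 dpf, which favours such an overlap. The neuronal lists had positive medians at 15 dpf, at 0.23 for synaptic, 0.23 for GABA and glycine and 0.10 for glutamate genes, against -0.60, -0.70 and -0.89 at 30 dpf. Of these lists 10 of 48, 12 of 46 and 8 of 55 tested genes differed between the ages. Gad2, with a log2FC of 0.31 at 15 dpf, differed by -1.51 (SE 0.30, edgeR adjusted p = 0.0283), and slc1a2b, at 0.23 at 15 dpf, by -1.68 (SE 0.40, adjusted p = 0.0433). Of 67 fast and 30 slow muscle genes 18 and 7 differed, among them tnni2a.3, which was at -0.82 at 15 dpf and differed by 2.16 (SE 0.30, adjusted p = 0.0121). Sparc was at -0.30 at 15 dpf and differed by 0.89 (SE 0.13, adjusted p = 0.0121), and hal, at -0.06, by -1.12 (SE 0.17, adjusted p = 0.0182). Among 75 liver genes 12 differed. Of 56 lens crystallins tested 0 differed, and the list's median at 15 dpf was 0.26 over the members tested there. Crygm7 was called at 15 dpf (log2FC 0.77, edgeR adjusted p = 0.0493). Crygm4 had counts of 0 in all libraries of 15 dpf, so its difference could not be estimated. Crybb3, crygm6, crygs3 and crygs4 had 0 to 4 counts in each library of 15 dpf. Their differences had SE values from 1.04 to 1.73, so the lack of calls does not show an equal effect at both ages.

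At 5 dpf, in libraries of their own, the neuronal lists lay on the other side, with medians of 1.01 for synaptic, 1.05 for GABA and glycine and 0.96 for glutamate genes, and gad2 at 1.6 (edgeR adjusted p = 4.97e-05). The difference between 5 and 30 dpf was not tested here. The number of genes that differed between 15 and 30 dpf was 5, 360 and 567 without MZ library 1, 2 and 3 of 30 dpf, and 351, 71 and 41 without het library 1, 2 and 3 of that age. Libraries of 15 dpf were not left out in turn, so how far the effects at 15 dpf rest on a single library was not tested.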

How the data were processed

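The authors' deposited file gives raw counts and a length for each gene name, per the file header. The submitters' processing notes name cutadapt, STAR 2.5.4b, featureCounts 1.6.3, Subread and GRCz10. Strand and the handling of shared reads are not given in the sources used here. The 6 libraries of 30 dpf were fitted alone with edgeR 4.0.16 in R 4.3.3 (filterByExpr, minimum count 10, TMM, quasi-likelihood F test, scospondin kept). Benjamini-Hochberg adjustment ran over 19980 genes, with calls under 0.05. SE is the absolute log2FC over the root of F. Group mates differed beyond counting noise (chi-square per degree of freedom of at least 10.8). The alternatives were DESeq2 1.42.0, limma 3.58.1 with voom, RLE factors, other filters, a robust fit, 1 fit over 18 libraries, a block on replicate number, leaving out each library and, added after the data were seen, removal of each library's loess trend on log2 length. The fits were tested on simulated counts.

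Named genes are scospondin, the 12 called genes of largest change and the 6 of highest mean CPM in each direction without overlap (clone names and copy suffixes left out), up to 4 called members of each of 51 lists by p, the most abundant members of lists with fewer than 2 calls, and the tested Reissner fibre and urotensin genes. A gene that the rule names is not reported here. Members and lists were chosen with earlier results of these data known. Floors cover counting error only.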

Additional observations from a re-analysis of the deposited data

Results flagged for a closer look

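A set of 42 named genes had a genotype effect at 30 dpf that differed from the effect at 15 dpf by the test of the difference itself (edgeR contrast over 12 libraries, adjusted p from 0.0121 to 0.0498). Only genes already called at 30 dpf were taken, and the test reuses those libraries, so this choice can enlarge the differences. Values are the log2 fold change at 30 dpf minus that at 15 dpf. Without MZ library 1 of 30 dpf 5 genes in all passed this test. Fits without single libraries of 15 dpf were not run.

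Among peptide and cerebellin genes the difference was -5.57 for rln3a, -2.54 for cbln12, -2.36 for VGF and -1.36 for scg2b. Among genes of the GABA and glutamate lists it was -1.96 for SLC6A11, -1.68 for slc1a2b, -1.60 for slc6a1a, -1.51 for gad2 and -1.29 for slc32a1. Among synaptic genes it was -1.43 for SV2A, -1.37 for syt1a and -1.22 for nrxn1a. Among potassium channels it was -2 for KCNJ6, -1.21 for kcnma1a and -1.05 for kcnc3a, and outside these lists -2.24 for slc8a4a. It was -1.25 for sox2, -1.14 for aldocb and -0.83 for zic5. In each of these 19 genes the value at 30 dpf was the lower.

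Among liver genes it was -1.12 for hal, -1.05 for hpda, -1.02 for apoa1b, -1.01 for gc, -0.98 for fetub and -0.90 for uox. Among muscle and caveolae genes it was 2.16 for tnni2a.3, 0.76 for mybpc3, 0.76 for tnni2b.2, 0.76 for atp2a1, 0.69 for tnnt2e and 0.63 for murca. Among matrix genes it was 0.91 for col5a1, 0.89 for sparc, 0.76 for matn4, 0.72 for mmp30 and 0.67 for timp2a. The others were ccl19a.2 at 4.86, ms4a17a.2 at 1.86, lgals1l1 at 1.80, cxcl18b at 1.1, gadd45ab at 0.84 and cldna at 0.64. Counts of ccl19a.2 at 15 dpf were 1, 0 and 0 in MZ and 1, 8 and 3 in het libraries, so its difference is only roughly known.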

How the results depend on the processing

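The 660 calls (221 higher, 439 lower) became 1224 (447 and 777) with DESeq2 and 1770 (620 and 1150) with 1 fit over all 18 libraries. They were 968 with the robust fit, 794 without a filter, 658 with the stricter filter, 622 with RLE factors, 564 with limma-voom and 530 with the length trend removed. The labels state no pairing by replicate number, and the correlations between libraries cannot settle it. Same-number correlations of deviations from the group mean were -0.0793, 0.104 and 0.153, and not every library correlated best with its own number. A fit with the replicate number as a block gave 493 calls, 149 higher and 344 lower, 268 genes for the difference from 15 dpf in place of 468, and 21 lens crystallins in place of 7. Leaving out 1 library gave 1 to 1092 calls, 1 to 379 higher and 0 to 713 lower, and 5 to 567 genes for the difference from 15 dpf. The cause was not tested. Uncalled genes changed sign: with 1 library left out, scospondin ran from -0.59 to 0.18 (without MZ library 2), urp1 from -0.37 to 0.16 (without MZ library 3, and 0.11 without het library 1), urp2 from -0.24 (without MZ library 1) to 0.52, ddx4 from -0.95 to 0.15 and rho from -0.08 to 0.33, with ddx4 and rho changing sign without MZ library 3. Clu was called without MZ library 3 (0.58, edgeR adjusted p = 0.0289) and in 1 fit over 18 libraries (0.43, adjusted p = 0.0205), ins with the block (-1.57, adjusted p = 0.0234) and zp3.2 without MZ library 2 (-2.42, adjusted p = 0.0458). Genes with a few counts per library, such as scospondin, rln3a and crygm4 in het fish, are limited by depth.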

Other observations

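Several further gene families had calls in 1 direction each in MZ fish at 30 dpf. They share a few members with the lists above, among them the called nrxn1a and cxcl18b. They were picked after their values were seen, so their counts describe these libraries and have no test. Among all genes tested 2.2% were called lower and 1.11% higher. In the shortest length decile these shares were 0.651% and 2.45%, and in the longest 3.8% and 0.4%. The families' counts were not taken in the fits without 1 library or with the length trend removed, so their dependence on either was not tested. Of 14 conventional kinesin and axonal transport genes 9 were called, each lower, and all 14 were negative, at a median log2 fold change of -0.86. They included kif1ab (-1.13, SE 0.15, edgeR adjusted p = 0.0186), a motor for synaptic vesicle precursors, kif5aa (-0.95, SE 0.15, adjusted p = 0.0222) and mapk8ip2, a scaffold for kinesin cargo (-1.32, SE 0.25, adjusted p = 0.0304). Of 53 synaptic adhesion genes (neurexins, neuroligins and leucine-rich families) 17 were called lower at a median of -0.88, among them nlgn3b (-1.02, SE 0.20, adjusted p = 0.0323). Of 36 protocadherins 5 were called lower, at a median of -0.64. Of 17 genes of calcineurin, CaM kinase II and its inhibitors 5 were called lower at a median of -0.62, among them camk2a (-0.84, SE 0.14, adjusted p = 0.0222).

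In the other direction, the small leucine-rich proteoglycans, which bind collagen fibrils, had positive values in all 13 members at a median of 0.47, and 4 were called: ogn (0.80, SE 0.10, edgeR adjusted p = 0.0177), aspn (0.70, SE 0.12, adjusted p = 0.0258), fmoda (0.60, SE 0.14, adjusted p = 0.0485) and dcn (0.53, SE 0.10, adjusted p = 0.0322). Of 32 chemokine ligand genes 31 were positive at a median of 0.35 and 5 were called higher, among them ccl25b (0.81, SE 0.09, adjusted p = 0.0177). Of 13 genes of the ms4a17a cluster 12 were positive at a median of 0.60 and 4 were called higher. Copies within these families can share reads.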
